A study of Arabidopsis thaliana with 8 samples.

Results

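The comparison described here sets rosette leaves of the dor mutant against rosette leaves of wild type after drought. It uses the 4 arrays whose labels give drought treatment, of 8 in the study, 2 for dor and 2 for wild type. The dor plants carried 1 SALK T-DNA insertion in the Columbia background, and the wild type plants were Columbia. Both genotypes received no water for 10 days, after 24 days of normal watering. The other 4 arrays hold dor and wild type plants watered for all 34 days (2 arrays each). They helped to estimate the spread between arrays and gave the genotype difference with water. All plants grew in soil under 16 h of light and 8 h of dark at 22 °C. The mutant is represented by 1 insertion line, and whether a sample pooled several plants is not given in the sources used here. The labels call the 2 samples of each group biological replicates without further detail, so p-values measure only the spread between these samples.

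DOR encodes an F-box protein. F-box proteins are the parts of SCF ubiquitin ligases that choose which proteins are marked for degradation. DOR has been described as a repressor of drought tolerance that acts on abscisic acid (ABA) signalling in guard cells, the cell pairs that open and close the stomatal pore. ABA rises in drying leaves, closes stomata and switches on genes for dehydrins and other late embryogenesis abundant (LEA) proteins, which protect membranes and proteins in cells that lose water. Drying leaves also lower many genes of photosynthesis and growth. The question is which leaf transcripts differ between the mutant and wild type once water has been withheld.

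On the 4 arrays, the 7 dehydrin, COR15 and LEA genes tested from the list of drought and ABA effectors had higher signals in dor than in wild type within each replicate under drought, and the tested photosystem and Calvin cycle genes of the lists had lower ones. None of these differences passed the test across all probe sets. Among named genes the largest difference held by both replicates, on the signals as deposited, was that of AT1G06830, annotated to the glutaredoxin family of small redox proteins. It had signals of 8.1 and 11.5 in dor drought replicates 1 and 2, against 452 and 477 in wild type drought. Both dor signals lay under the 40th percentile of their array. With such dim signals raised to that percentile, its difference (-2.64) was smaller in size than those of several other named genes. Among these were AT5G22580 (-2.82), AT1G05340 (3.18), LTI30 (3.26), AT5G66780 (3.28) and PDF1.2 (-4.18). Of the 15523 tested probe sets, 0 reached an adjusted p under 0.05 (limma with the replicate number as a block, Benjamini-Hochberg adjustment), 0% of those tested, and the smallest adjusted p was 0.196. At an unadjusted p under 0.05 there were 1617 probe sets (10.4%), where an even spread of p-values gives 776. They split into 557 higher in dor (3.59%) and 1060 lower in dor (6.83%). Without the replicate block there were 492 (3.17%) at an unadjusted p under 0.05 and again 0 after adjustment (0%).

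The 2 replicates differed in how far the genotypes stood apart. The within-replicate differences, dor minus wild type in log2, had a standard deviation over the tested probe sets of 1.37 in replicate 1 and 0.865 in replicate 2. The same differences between watered plants had standard deviations of 0.825 and 1.09. Across probe sets the differences of the 2 drought replicates correlated with r = 0.262, and those of the 2 watered replicates with r = 0.0104. Probe sets are not independent samples, so these coefficients are descriptions. A difference of more than 2-fold in both drought replicates was found for 440 probe sets higher in dor (2.83%) and 547 lower in dor (3.52%), while 344 went past 2-fold in opposite directions. Among watered plants the numbers were 154 higher, 141 lower and 273 opposite.

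**Figure D1:**
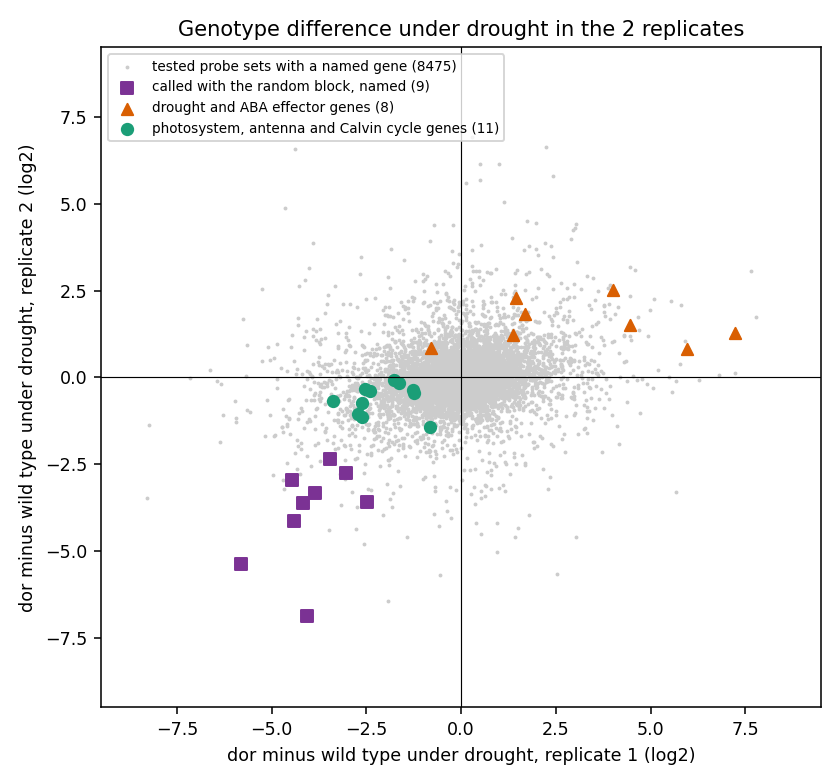
Difference of dor minus wild type under drought (log2 of array signal) in replicate 1 (x axis) and replicate 2 (y axis), 1 point per tested probe set with a named gene. The drought and ABA effector genes (triangles) lie above 0 in replicate 2 and all but HIS1-3 above 0 in replicate 1, and the photosystem, antenna and Calvin cycle genes (circles) lie below 0 in both; squares mark the named genes called with the random block.

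Several readings besides gene signals also differed between the drought groups. The geometric mean signal of 12 poly-A spike control probe sets was 337 and 104 in dor drought, against 339 and 26.1 in wild type drought. It thus differed in replicate 2 only. Ratios of 5′ to 3′ probe sets fall when RNA is degraded or incompletely copied. The actin ratio was 0.370 and 0.382 in dor drought, against 0.389 and 0.497 in wild type drought. The GAPDH ratio was 0.947 and 0.799 in dor drought, against 1.07 and 1.09 in wild type drought, and the ratio of middle to 3′ ubiquitin probe sets was 0.430 and 0.437 in dor drought, against 0.632 and 0.546 in wild type drought. These 3 ratios were lower in dor with no overlap. On the watered arrays the actin ratio was 0.245 and 0.366 in dor, against 0.229 and 0.575 in wild type. The GAPDH ratio there was 1.03 and 0.847 in dor, against 1.01 and 1.03 in wild type. The ratio of middle to 3′ ubiquitin probe sets there was 0.174 and 0.331 in dor, against 0.184 and 0.405 in wild type. The ratio of 5′ to 3′ ubiquitin probe sets was 0.589 and 0.488 in dor drought, against 0.596 and 0.536 in wild type drought, and overlapped. The RNA extraction wording differs as well: it names the RNAplant reagent for dor replicate 1 and wild type replicate 2, and for the other drought arrays it does not, so the wording runs opposite ways in the 2 pairs. With the wording as a further covariate, 0 probe sets passed the adjusted threshold and 1545 had an unadjusted p under 0.05 (limma). The mean differences stay as they are in that fit, because each genotype has both wordings. The part of the RNA quality ratios in the results below was not tested.

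DOR (AT2G31470) itself read 2.3 and 3.7 in dor drought, against 3.1 and 5.2 in wild type drought. All 4 values lay far below the 40th percentile of their own array (59.5 to 90.8), so the probe set was not tested and does not check the genotype labels. NCED3, which encodes an ABA synthesis enzyme, has no probe set named for it in the tables used and was not analysed here. For the leaf label, the mesophyll marker RCA (AT2G39730), Rubisco activase, was bright on all 4 arrays, at 9383 and 26561 in dor drought and 31878 and 27883 in wild type drought. Guard cell markers were also present. Markers of trichomes, vascular tissue, roots, flowers and seeds, and senescing leaves had no tested probe set.

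The drought and ABA effector genes form the group that stood highest in dor. Of the 36 genes on the list, 8 had a tested probe set, and all 8 had a positive mean difference. The median difference over the 8 was 2.43 on the log2 scale, 2.84 in replicate 1 and 1.4 in replicate 2, against a median near 0 over all tested probe sets. In watered plants the list's median was -0.71, with 0.21 in replicate 1 and -2.16 in replicate 2. Of these genes 7 were higher in dor in both replicates (29% of all tested probe sets were). Over 2-fold higher in both were 6 (2.83% of all tested probe sets). In 6 the 2 dor arrays lay above the 2 wild type arrays (15.1% of all tested probe sets). At an unadjusted p under 0.05 there were 3 (3.59% of all tested probe sets were higher at that p), and 0 after adjustment. The lower actin, GAPDH and middle to 3′ ubiquitin ratios of the dor drought arrays stand beside this result.

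LTI30 (AT3G50970) encodes a dehydrin that binds membranes during cold and drought. Its signals were 45119 and 17566 in dor drought, against 2819 and 3065 in wild type drought. Both dor arrays exceeded both wild type arrays several fold, and the wild type arrays lay close together. The mean difference was 3.26 ± 0.52 (log2, SE of the fit, n = 2 pairs), with an adjusted p of 0.261 in limma. In watered plants LTI30 read 243 and 303 in dor, against 200 and 671 in wild type.

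COR15A (AT2G42540) and COR15B (AT2G42530) encode small chloroplast proteins that stabilise membranes in freezing and drying leaves. COR15A had 35583 and 22806 in dor drought, against 1613 and 8004 in wild type drought. COR15B had 760.4 and 1970.1 in dor drought, against 236 and 556 in wild type drought. In both genes the dor arrays lay above the wild type arrays, by 2.99 ± 1.19 for COR15A (adjusted p = 0.479) and 1.76 ± 0.88 for COR15B (adjusted p = 0.542). With water the order was turned for COR15B, which read 718 and 372 in dor, against 1045 and 8674 in wild type.

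COR47 (AT1G20440), another dehydrin, had 30059 and 22750.2 in dor drought, against 11597 and 9772 in wild type drought. The groups did not overlap, and the 2 replicates gave nearly equal differences of 1.37 and 1.22 (mean 1.3 ± 0.59, adjusted p = 0.523). Of the other 3 LEA genes, LEA4-5 and LEA18 differed far more between replicates. LEA4-5 (AT5G06760) had 9934 and 3728 in dor drought, against 158 and 2110 in wild type drought, differences of 5.97 and 0.82. LEA18 (AT2G35300) had 3461 and 299.7 in dor drought, against 23.0 and 123 in wild type drought, differences of 7.23 and 1.29. AtLEA4-1 (AT1G32560) had 1507 and 504 in dor drought, against 548 and 104 in wild type drought. Its differences were 1.46 and 2.27, and here the groups overlapped. The exception of the list was HIS1-3 (AT2G18050), a drought-induced linker histone, with 8729 and 5668 in dor drought, against 15020 and 3153 in wild type drought. Its mean difference was 0.03 ± 0.61, with opposite signs in the 2 replicates.

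**Figure D2:**
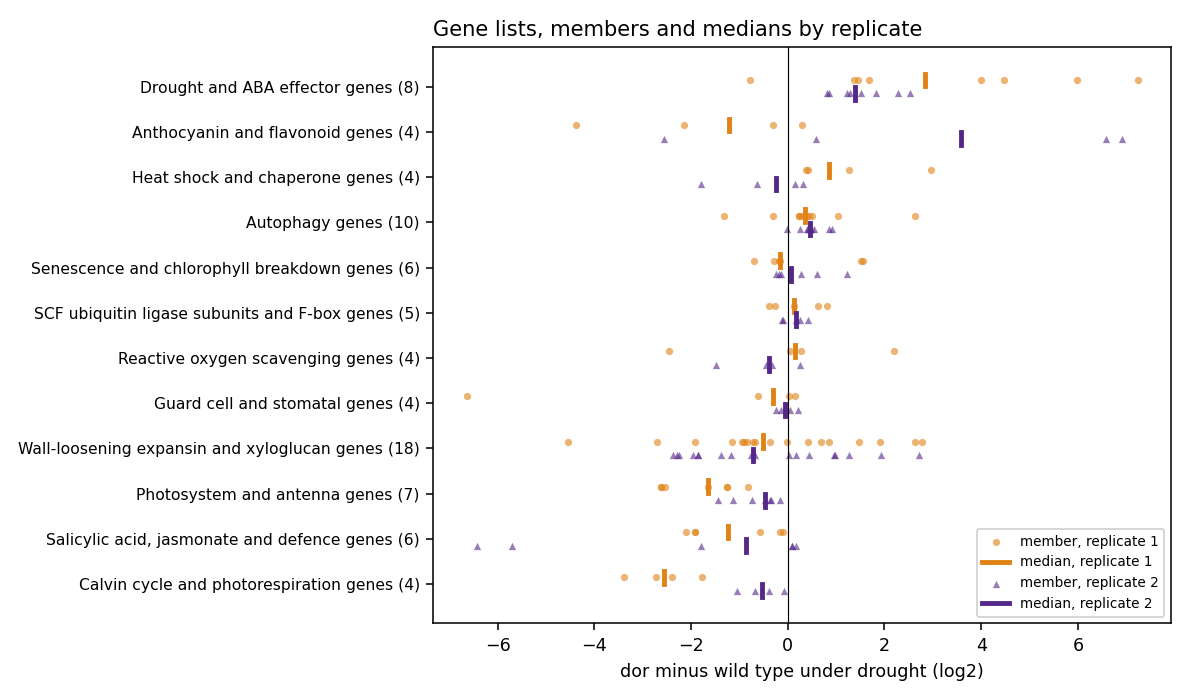
Difference of dor minus wild type under drought (log2, x axis) for the gene lists with at least 4 tested members, the number tested in brackets. Circles and triangles are members in replicates 1 and 2 and thick bars the median of each replicate; the effector genes have medians of 2.84 and 1.4 and the Calvin cycle genes -2.56 and -0.53.

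Genes of the photosynthetic membrane were lower in dor. Of 45 photosystem and antenna genes on the list 7 had a tested probe set, and all 7 were lower in dor in both replicates (29.7% of all tested probe sets were). The median difference was -1.13, with -1.65 in replicate 1 and -0.46 in replicate 2. In 6 of the 7 the arrays did not overlap (15.1% of all tested probe sets had dor below wild type without overlap). An unadjusted p under 0.05 was found for 4 (6.83% of all tested probe sets were lower at that p). The median difference in watered plants was 0.20. PSBY (AT1G67740), a small subunit of photosystem II, had 2852 and 7166 in dor drought, against 17495 and 15713 in wild type drought. Its difference was -1.87 ± 0.44 (adjusted p = 0.331). PSAN (AT5G64040), a subunit on the lumen side of photosystem I, had 2403 and 7718 in dor drought, against 14759 and 12915 in wild type drought. As in PSBY, the lowest value was that of dor replicate 1.

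The LHCB4 genes encode isoforms of CP29, a minor antenna protein that passes light energy to photosystem II. LHCB4.2 (AT3G08940) had 5716 and 14819 in dor drought, against 33292 and 18783 in wild type drought. LHCB4.1 (AT5G01530) had 7403 and 15540.2 in dor drought, against 23230 and 17401 in wild type drought. These 2 isoforms were separated mainly in replicate 1, with differences of -2.54 and -1.65, while in replicate 2 the differences were -0.34 and -0.16. LHCB4.3 (AT2G40100) had 150.4 and 503 in dor drought, against 265 and 1368 in wild type drought. It overlapped between genotypes but was lower in dor within each replicate (mean -1.13 ± 0.32, adjusted p = 0.364).

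All 4 tested genes of the Calvin cycle and photorespiration, of 31 on the list, were lower in dor in both replicates. Their median difference was -1.64, with -2.56 in replicate 1 and -0.53 in replicate 2, and 3 had an unadjusted p under 0.05. Over all tested probe sets 29.7% were lower in both replicates and 6.83% were lower at that p. PRK (AT1G32060), phosphoribulokinase, which makes the CO2 acceptor, had 1728 and 9087 in dor drought, against 18067 and 14498 in wild type drought. SBPASE (AT3G55800), a phosphatase of the regeneration phase, had 687 and 4807 in dor drought, against 4538 and 9913 in wild type drought. HPR (AT1G68010), the peroxisomal hydroxypyruvate reductase of photorespiration, had 3117 and 14133 in dor drought, against 16386 and 18569 in wild type drought. Dor replicate 1 was the lowest array in each of the 3 genes. The remaining gene, RCA, differed by -1.76 in replicate 1 but by only -0.07 in replicate 2. The adjusted p-values were 0.396 for PRK, 0.347 for SBPASE and 0.455 for HPR. In whole leaves fewer cells of a type and less RNA per cell cannot be told apart, and the 3 lower RNA quality ratios in dor accompany these values too.

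In each direction 10 genes were named for the largest difference held by both replicates, and EXLA1 and LTI30 belong to the higher ones. AT1G05340, a member of the family of small cysteine-rich transmembrane (CYSTM) proteins, had 42048 and 9534 in dor drought, against 3736 and 1308 in wild type drought. It differed by 3.18 ± 0.39 (adjusted p = 0.196), and with water it read 163 and 60.2 in dor, against 90.9 and 70.8 in wild type. AT4G20320, annotated as a CTP synthase family protein, had 12141 and 2377 in dor drought, against 1348 and 407 in wild type drought. In both genes each dor array lay above both wild type arrays.

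EXLA1 (AT3G45970) encodes an expansin-like protein of the cell wall. Its signals were 1462 and 343 in dor drought, against 236 and 52.5 in wild type drought. The differences in the 2 replicates were 2.63 and 2.71, but the wild type replicate 2 signal lay under the 40th percentile of its array, and with dim signals raised the mean difference of 2.67 became 2.3. AT2G23110, of LEA group 6, had 2257 and 151 in dor drought, against 104 and 16.8 in wild type drought. AT1G54120, whose product is not characterised in the tables, had 1679 and 571 in dor drought, against 169 and 75.4 in wild type drought. In AT2G23110 and AT1G54120 the wild type replicate 2 signal also lay under the 40th percentile of its array. With dim signals raised, the difference of 3.80 became 2.62 for AT2G23110, and that of 3.12 became 3.01 for AT1G54120.

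The other 4 higher genes were dim on both wild type drought arrays. AT5G66780 had 2574 and 190.1 in dor drought, against 12.8 and 22.7 in wild type drought. AT3G22620, of a lipid transfer protein family, had 279 and 493 in dor drought, against 35.1 and 76.0 in wild type drought. AT1G29680 had 530.2 and 115 in dor drought, against 34.9 and 18.3 in wild type drought. In these 3 genes and AT2G13770 the wild type arrays lay under the 40th percentile of their array, so the size of the difference depends on how low signals are treated. With such signals raised to that percentile, the difference was 3.28 for AT5G66780 (5.36 as deposited), 2.36 for AT3G22620 (2.84) and 1.78 for AT1G29680 (3.29). AT2G13770 had 64.7 and 97.4 in dor drought, against 7.8 and 9.8 in wild type drought, and its difference of 3.18 became 0.14.

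**Figure D3:**
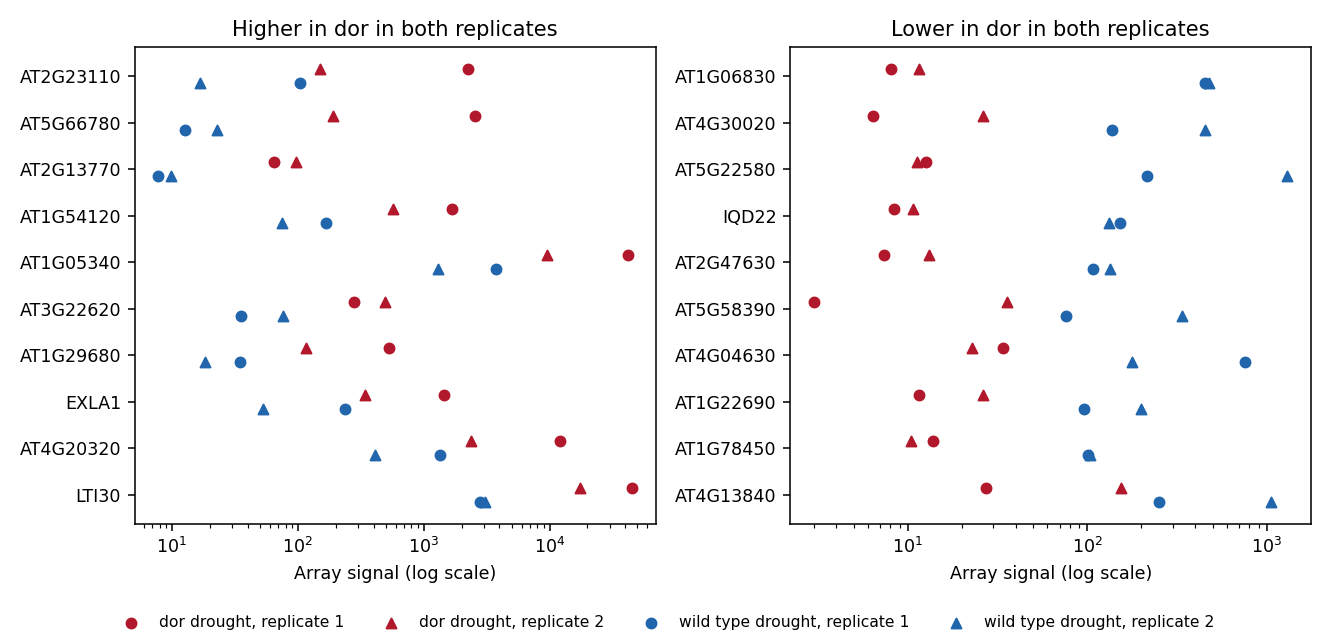
Array signal (log scale, x axis) of the 10 genes higher in dor (left panel) and the 10 lower in dor (right panel), with dor drought above wild type drought in each row. Circles are replicate 1 and triangles replicate 2; in every gene shown the 2 dor arrays lie on one side of the 2 wild type arrays (the genes were chosen for this difference).

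Among the lower genes most dor signals were near the bottom of the scale. AT1G06830 differed by -5.59 ± 0.45, and both replicates gave nearly the same value (-5.80 and -5.37). With water it read 6175 and 1826 in dor, against 9361 and 942 in wild type, above every droughted array. AT5G22580, which the tables leave without a described function, had 12.7 and 11.2 in dor drought, against 215 and 1302 in wild type drought (-5.47 ± 0.66). AT4G30020, of the subtilase family of proteases, had 6.4 and 26.1 in dor drought, against 137 and 455 in wild type drought. With dim signals raised to the 40th percentile, the differences of these 3 genes were -2.64, -2.82 and -1.74.

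AT4G13840 (CER26), an acyltransferase-type protein that takes part in making long wax chains of the leaf surface, had 27.2 and 155 in dor drought, against 250.1 and 1061 in wild type drought. It was the only one of the 10 with a dor array above the 40th percentile, and its difference of -2.99 ± 0.32 was -2.40 with dim signals raised. AT4G04630 had 34.0 and 22.8 in dor drought, against 753 and 177 in wild type drought (-3.71 ± 0.52). IQD22 (AT4G23060), a calmodulin-binding protein with an IQ domain, had 8.4 and 10.7 in dor drought, against 152 and 132 in wild type drought. Its difference of -3.90 ± 0.50 shrank to -0.92 with dim signals raised.

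The remaining 4 lower genes showed the same dependence. AT1G22690, of the gibberellin-regulated GASA family, had 11.6 and 26.2 in dor drought, against 96.3 and 198 in wild type drought. AT5G58390, a class III peroxidase, had 3.0 and 35.9 in dor drought, against 76.1 and 335 in wild type drought. With dim signals raised their differences were -0.89 and -1.09, against -2.99 and -3.94 as deposited. AT2G47630, of an alpha/beta hydrolase family, had 7.4 and 13.2 in dor drought, against 108 and 133 in wild type drought, and AT1G78450 had 13.8 and 10.4 in dor drought, against 101 and 103 in wild type drought. These were the 2 whose raised differences came closest to 0, at -0.68 and -0.45.

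When condition and replicate number entered limma as a random block in place of a fixed one, 22 probe sets passed an adjusted p of 0.05 (0.142% of those tested), 1 higher (0.00644%) and 21 lower in dor (0.135%). The estimated correlation within a block was 0.659. In all 22 the dor and wild type drought arrays did not overlap. They were picked by a test on these same arrays, so this is no separate support. Over all tested probe sets 15.1% lay higher and 15.1% lower in dor without overlap. Of the 22 probe sets 9 had a named gene, all lower in dor, and 6 of the 9 are described above (AT1G06830, AT5G22580, AT4G30020, AT4G04630, IQD22 and AT2G47630). The other 3 were singled out after their values were seen, and in them the dor signals lay above the 40th percentile of their arrays.

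AT1G32470 encodes an H protein of the glycine cleavage system, the mitochondrial step of photorespiration. It had 279 and 649 in dor drought, against 3059 and 3309 in wild type drought, a difference of -2.90 ± 0.40 (adjusted p = 0.261 with the fixed block and 0.0491 with the random block). AT1G49750, of a leucine-rich repeat family, had 121 and 366 in dor drought, against 993 and 2445 in wild type drought (-2.89 ± 0.32). AT2G41090, a calmodulin-like protein with EF hands, had 769.6 and 1300 in dor drought, against 4347 and 15777 in wild type drought (-3.05 ± 0.39). With water AT2G41090 was bright and similar in both genotypes, at 25299 and 27834 in dor, against 24546 and 23689 in wild type. Raising dim signals left these 3 differences as they were.

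The genotype difference under drought was also tested against that with water. The contrast of the genotype difference under drought minus that with water gave 0 probe sets at an adjusted p under 0.05 (0% of those tested, limma), with a smallest adjusted p of 0.856. At an unadjusted p under 0.05 there were 885 (5.7%), where an even spread of p-values gives 776. Of the 8 effector genes 4 were among them (LTI30, COR15A, COR15B and COR47). For COR15A, COR15B and COR47 the watered wild type replicate 2 array alone stood high. With water COR15A read 3274 and 615 in dor, against 2229 and 11241 in wild type, pair differences of 0.55 and -4.19. COR47 read 663 and 1162.5 in dor, against 606 and 5930 in wild type, pair differences of 0.13 and -2.35. Of the 52 genes named by the rules, all with 1 order of the genotypes in both drought pairs, 13 had the opposite order in both watered pairs (25%). Over all 9117 tested probe sets with 1 order in both drought pairs the share was 20.4%, near that of the named genes. AT2G41090, added after its values were seen, had the opposite order too. EXLA1 was 2.67 ± 0.48 higher in dor under drought, against -1.22 ± 0.48 with water, and the difference between these was 3.88 ± 0.68 (adjusted p = 0.856). The adjusted p-values of these 14 genes ran between 0.856 and 0.880.

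**Figure D4:**
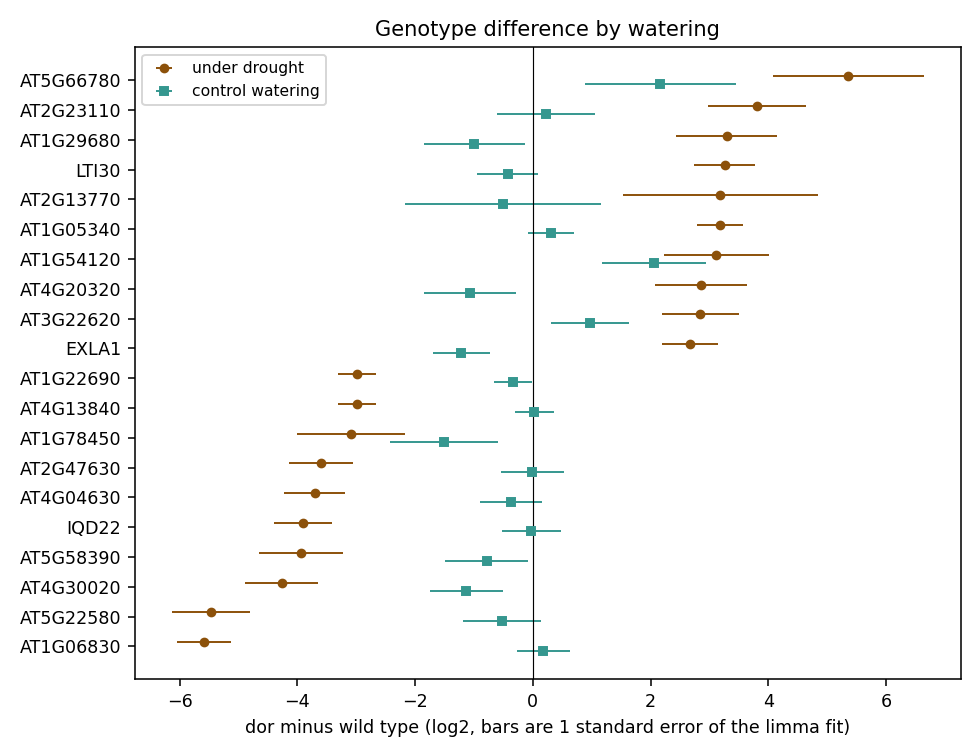
Difference of dor minus wild type (log2, x axis) under drought (circles) and with control watering (squares) for the 20 genes with the largest difference held by both drought replicates; bars are 1 standard error of the limma fit (n = 2 pairs per condition). The genes were chosen on the drought values, EXLA1 lies at 2.67 under drought and -1.22 with water, and no difference between conditions passed the adjusted threshold.

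Cell wall genes went both ways. Of 18 tested expansin and xyloglucan genes 4 were higher and 7 lower in dor in both replicates. Over all tested probe sets 29% were higher and 29.7% lower in both, which is near these counts. The list's median difference of -0.31 became 0.05 with dim signals raised. That is the value any gene dim on all 4 drought arrays receives, since the 40th percentiles of the arrays differ, and is not a measured difference. EXLB1 (AT4G17030), an expansin-like gene, had 7793 and 8001 in dor drought, against 1141 and 4093 in wild type drought (1.87 ± 0.51, adjusted p = 0.356). EXPA8 (AT2G40610), an alpha-expansin that loosens growing walls, had 48.2 and 8.2 in dor drought, against 182 and 42.7 in wild type drought. The expansin-like genes EXLA1 and EXLB1 thus lay above wild type, and EXPA8 lay below it within each replicate with overlapping groups. Another tested expansin-like gene, EXLA2 (AT4G38400), was dim on all 4 drought arrays, with 5.1 and 9.6 in dor, against 3.8 and 4 in wild type. EXPA8 was under the 40th percentile on every drought array but wild type replicate 1. With dim signals raised its difference of -2.15 became -0.75.

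Autophagy genes, which serve the recycling of cell contents, differed by small amounts. Of 10 tested members 7 were higher in both replicates and 0 lower in both, against 29% and 29.7% of all tested probe sets. Their median was 0.37, and 0 were over 2-fold higher in both (2.83% of all tested probe sets). At an unadjusted p under 0.05 there was 1 higher (3.59% of all tested probe sets). ATG8H (AT3G06420), one of the ubiquitin-like proteins that coat the autophagosome, had 3411 and 666 in dor drought, against 551 and 368 in wild type drought. It differed by 1.74 ± 0.49 (adjusted p = 0.362). ATG3 (AT5G61500), the enzyme that attaches ATG8 to lipid, had 2117 and 1784 in dor drought, against 1603 and 1349 in wild type drought, a difference of 0.40 in each replicate.

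Guard cell genes gave no direction. None of the 4 tested members had the same sign in both replicates, and the median difference was -0.20. The cation antiporter gene CHX20 (AT3G53720) had 425 and 443 in dor drought, against 418 and 527 in wild type drought. FMA (AT3G24140), which controls the last step of guard cell formation, had 259.9 and 207 in dor drought, against 236 and 229 in wild type drought. Neither differed beyond the spread of its arrays. STOMAGEN (AT4G12970), a mesophyll peptide that promotes stomata, had 3.3 and 58.8 in dor drought, against 327 and 51.0 in wild type drought, with the wild type replicate 1 array alone standing high.

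Among genes of ABA metabolism, 3 were tested and the median difference was -0.10. UGT71B6 (AT3G21780), which attaches glucose to ABA, had 838 and 202 in dor drought, against 484 and 120.0 in wild type drought. The difference of 0.77 ± 0.47 was close to that with water (0.96) and had an adjusted p of 0.610. STZ (AT1G27730), a zinc finger repressor induced by stress and the only drought transcription factor tested, had 7859 and 3036 in dor drought, against 4570.0 and 673 in wild type drought. It was higher in dor by 1.48 ± 0.42 under drought and by 1.27 ± 0.42 with water (adjusted p under drought = 0.362). No gene of the ABA receptor, phosphatase and kinase list and no aquaporin had a named probe set.

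Defence, flavonoid and antioxidant genes rested partly on single arrays. PDF1.2 (AT5G44420), a plant defensin that marks jasmonate and ethylene responses, had 74.5 and 127 in dor drought, against 283 and 10887 in wild type drought. The wild type replicate 2 array alone was very high, likewise for PDF1.2b (AT2G26020) with 174 and 119 in dor drought, against 257 and 6219 in wild type drought. The median over 6 tested defence genes was -1.43, which became -0.71 with dim signals raised. Of the 6, 3 were lower in dor in both replicates (29.7% of all tested probe sets were). JMT (AT1G19640), which makes methyl jasmonate, had 6.3 and 68.4 in dor drought, against 23.7 and 239 in wild type drought.

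DFR (AT5G42800), an enzyme of anthocyanin synthesis, had 53.8 and 6822 in dor drought, against 43.9 and 56.6 in wild type drought. UF3GT (AT5G54060), which adds a sugar to anthocyanins, had 3.1 and 7852 in dor drought, against 64.4 and 82.6 in wild type drought. In both genes dor replicate 2 alone was high, and the median of the 4 tested flavonoid genes was -1.22 in replicate 1 and 3.58 in replicate 2. UGT78D1 (AT1G30530), a flavonol rhamnosyltransferase, behaved alike in both replicates. It had 78.4 and 180.0 in dor drought, against 348 and 1060 in wild type drought (-2.35 ± 0.37, adjusted p = 0.261).

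Of the ascorbate peroxidases, which remove hydrogen peroxide in the chloroplast, the thylakoid and the stromal forms lay on opposite sides. TAPX (AT1G77490), at the thylakoid, had 142 and 312 in dor drought, against 780 and 877 in wild type drought (-1.97 ± 0.41, adjusted p = 0.310). SAPX (AT4G08390), of the stroma, had 838 and 1270.0 in dor drought, against 182 and 1068 in wild type drought (1.22 ± 0.51, adjusted p = 0.485). The median of the 4 tested antioxidant genes was -0.11. TAPX was lower in dor without overlap, and the SAPX groups overlapped.

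The remaining lists were small. Over all tested probe sets 29% were higher and 29.7% lower in dor in both replicates. Of 6 tested senescence genes 1 was higher and 2 lower in both replicates (median 0.29). WRKY6 (AT1G62300), a senescence transcription factor, had 629.6 and 156 in dor drought, against 222 and 102 in wild type drought (1.06 ± 0.44, adjusted p = 0.486). Of 4 heat shock genes 2 were higher in both (median 0.53), and HSA32 (AT4G21320) had 359.7 and 194 in dor drought, against 149 and 156 in wild type drought. Of 5 SCF and F-box genes 1 was higher in both, SK18 (AT1G10230), an SKP1-like subunit, with 373 and 259 in dor drought, against 211 and 217 in wild type drought. The SCF list median was 0.08. GI (AT1G22770), a clock protein, had 141 and 1754 in dor drought, against 63.0 and 738 in wild type drought, higher in dor within each replicate with overlapping groups. Both tested genes of the proline, raffinose and osmolyte list were lower in dor in both replicates. ALDH10A8 (AT1G74920), a betaine aldehyde dehydrogenase, had 2235 and 2669 in dor drought, against 4753 and 3154 in wild type drought. Its paralog ALDH10A9 (AT3G48170) had 1521 and 1341 in dor drought, against 1775 and 1476 in wild type drought, with overlapping groups and an adjusted p of 0.863.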

How the data were processed

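Leaf RNA was measured on Affymetrix ATH1 arrays. The deposited intensity values are linear signals, 1 per probe set and array, which the authors produced in GCOS and MAS5, per the submitters' processing notes. On each deposited array the mean intensity after trimming 2% at each end was 500. No depth exists for arrays, and the number of arrays limits the precision. Signals under 1 were set to 1 (399 values, 3 in tested probe sets) before log2. The test took probe sets that reached the array's 40th percentile on at least 2 arrays, without 64 control probe sets, which left 15523 of 22810. Of all probe sets 13513 stood for 1 gene by the platform table, 503 for several and 8730 were not listed. Names came from RefSeq (TAIR10.1), which matched 13436, and 8495 tested probe sets stood for 1 gene. Where several stood for 1 gene, the brightest was used for lists.

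All 8 arrays entered a two-sided limma fit (limma 3.58.1, R 4.3.3; lmFit and contrasts.fit, then eBayes with a trend on intensity) with genotype within condition and a fixed block for each of the 4 pairs of condition and replicate number, which left 2 residual degrees of freedom. Benjamini-Hochberg adjustment ran over all tested probe sets, with a threshold of 0.05. The labels do not say what the number marks. The replicate 2 minus replicate 1 deviations of dor and wild type correlated with r = 0.402 under drought and 0.594 with water.

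The 25 gene lists hold 718 matched loci, with 108 represented by a named probe set and 88 tested. The members, lists, rules and alternatives were chosen with earlier results of these data known. The rule for naming genes takes NCED3 and DOR, then the 10 highest and 10 lowest by the smaller of the 2 within-replicate differences of the same sign, bright in both arrays of the higher genotype, then up to 3 per list. Other list members are given to complete a list, and 3 genes called with the random block were added. The alternatives were other normalizations, low-signal treatments, filters, variance models, blocks and sets of arrays, and leaving out each array in turn. The fit was also tested on simulated data. Figures were drawn with matplotlib 3.10.9 in Python 3.11.15.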

Additional observations from a re-analysis of the deposited data

How the results depend on the processing

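The count of called probe sets under drought was 0 in the main comparison and under 18 of 21 alternatives, including no replicate block (0 calls, 492 at an unadjusted p under 0.05 against 1617). It was 22 with the random block, and between 0 and 115 when 1 array was left out. The high end came without dor drought replicate 2 (115, of which 14 higher) and without wild type drought replicate 2 (66, of which 10 higher). Both leave only the replicate 1 pair for drought, tested against the spread of the watered pairs. The contrast between conditions gave 0 calls under every alternative that allowed it. Of 1090 values of the named genes under alternatives, 13 passed the threshold, all with the random block or without a replicate 2 drought array. Their direction was set by how they were chosen, so its persistence says nothing about stability. The effector median ranged from 1.4 to 2.84, the photosystem median from -1.65 to -0.46 and the Calvin cycle median from -2.56 to -0.53. These limits are the medians of the 2 replicates taken alone, reached when a drought array is left out. Changes of block, variance model or watered arrays leave the mean differences as they are, so they could not move these medians. The medians of the cell wall, senescence, heat shock, antioxidant, flavonoid and ABA metabolism lists changed sign under at least 1 alternative. For the heat shock, antioxidant, flavonoid and ABA metabolism lists both ends of the range are the medians of the single replicates. Those 2 medians have opposite signs. For the senescence list the low end (-0.17) is the replicate 1 median. The cell wall median turned positive (0.05) only with dim signals raised. Leaving out both watered arrays of replicate 1 was added after the data were seen. Detection calls were not analysed here, so how far dim signals exceed background is unknown.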

Other observations

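The 69 plastid-encoded genes with a tested probe set, a list added after the data were seen, had a median difference of -0.66 between dor and wild type under drought, with -1.09 in replicate 1 and -0.04 in replicate 2. Of these 35 were lower in dor in both replicates and 4 higher in both, against 29.7% and 29% of all tested probe sets. An unadjusted p under 0.05 was found for 15, all lower, against 6.83% of all tested probe sets. The ribosomal protein gene rpl36 had 571 and 354 in dor drought, against 2944 and 1595 in wild type drought, and matK, an intron maturase, had 4035 and 3394 in dor drought, against 9077 and 9024 in wild type drought. The dor drought arrays also had the lower RNA quality ratios, whose part in this was not tested.

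Of 7 tested tau-class glutathione transferase genes (GSTU), which conjugate glutathione to reactive compounds, 6 were lower in dor in both replicates. Over all tested probe sets 29.7% were lower in both. The GSTU median of -1.10 became -0.37 with dim signals raised. GSTU27 (AT3G43800) had 215 and 262 in dor drought, against 846 and 1071 in wild type drought (-2.0 ± 0.38, limma adjusted p = 0.303). GSTU20 (AT1G78370) had 47.8 and 1366 in dor drought, against 351 and 3604 in wild type drought. All 6 tested glutamate receptor-like genes (GLR), ligand-gated channels, had positive mean differences. Higher in dor in both replicates were 5 (29% of all tested probe sets were). The GLR median was 1.63 in replicate 1 and 0.29 in replicate 2. In limma 0 had an unadjusted p under 0.05, and 0 were over 2-fold higher in both replicates. Their median of 0.92 became 0.33 with dim signals raised. GLR2.8 (AT2G29110) had 726 and 188 in dor drought, against 140 and 153 in wild type drought. The GLR family was added after its values were seen.

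Of the 22 probe sets called with the random block 13 have no gene in the tables used, and the 1 higher in dor is among them.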
